A study of Mus musculus with 16 samples.

Results

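Rikenellaceae are a family of the order Bacteroidales, and 52 of the 1901 amplicon sequence variants (ASVs, each a different 16S rRNA gene sequence) in the colon libraries carried that family name. All 52 were taken, by the name alone. The genus label was Alistipes for 37 of them, Rikenellaceae_RC9_gut_group (RC9 below) for 10 and Rikenella for 5. They carried 112159 counts, 7.27% of the table.

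The study had 4 groups of 4 C57BL/6J-background mice, 8 to 10 weeks old. Wild-type (WT) mice and mice without MERTK (MERTK-KO) drank sterile water, and further mice of both genotypes (WT+DSS and MERTK-KO+DSS) drank 2.5% dextran sulfate sodium for 7 days. DSS injures the colonic epithelium and gives an acute colitis, and MERTK is the receptor kinase with which macrophages clear dying cells. Distal colon was taken on day 8 and, per the labels' protocol, rinsed before extraction. The labels write the knockout as MERTK-/- without detail of the allele and give no cage, litter or sex, and 16S counts cannot check the genotype. Genotype and housing history therefore cannot be told apart, and neither can DSS and cage. A DSS effect below is the difference between the DSS and water groups of a genotype.

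Rikenellaceae are strictly anaerobic Gram-negative rods of the animal hindgut. Alistipes tolerates bile, ferments both sugars and amino acids, is known for making succinate and sulfonolipids, and is often reported to shift in abundance in intestinal inflammation. Rikenella was first described from the gut of animals and ferments sugars to short-chain acids. The RC9 gut group is named from 16S sequences, many of them from ruminants, and has few cultured members, so little is known of what it does in mice.

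Every library held 96469 counts, so counts are shares and are coupled: a taxon that expands pushes the other shares down. A count of 0 allows a share of up to 0.00311% of a library (3 counts, counting error only). ASVs were tested if they had at least 10 counts in all and were found in at least 3 libraries, which 37 of the 52 members passed. The other 15 held 374 counts together, 0.333% of the family. Calls below are at a false discovery rate of 0.05 in edgeR's quasi-likelihood test with Benjamini-Hochberg adjustment over 1056 ASVs, 122 genus-level groups or 57 families. Comparisons share groups, so their results are not independent.

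One feature of the DSS libraries touches many members. Of 9 members with a mean of at least 100 counts in MERTK-KO+DSS mice and none in WT mice on water, 7 were also found in WT+DSS mice, at 0.933% to 2.69% of their MERTK-KO+DSS mean. In the other direction, 5 of 8 such members of WT+DSS mice were found in MERTK-KO+DSS mice, at 1.85% to 6.52%. The median was 2.26% and 3.60%, and over all ASVs of this kind it was 2.59% (55 of 70 found) and 3.31% (65 of 84). Results are therefore also given with such traces set to 0, that is, with an ASV taken as absent from whichever DSS group had a mean below 5% of the other's. This set 9 members to 0 in WT+DSS mice and 4 in MERTK-KO+DSS mice. How these low counts arose was not tested.

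The family took a larger share of the community in MERTK-KO mice than in WT mice, and within WT mice a larger one on DSS than on water. On water it held 2.31%, 1.90%, 3.54% and 3.55% of counts in WT mice 1 to 4 and 10.4%, 12.8%, 8.62% and 13.8% in MERTK-KO mice 1 to 4. On DSS it held 5.28%, 5.24%, 6.46% and 4.40% in WT mice and 9.56%, 10.6%, 7.60% and 10.2% in MERTK-KO mice. Every MERTK-KO mouse was above every WT mouse with the same drink, every WT+DSS mouse was above every WT mouse on water, and the MERTK-KO groups overlapped.

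Group means were 2.83% ± 0.847 (SD, n = 4) in WT, 5.34% ± 0.851 in WT+DSS, 11.4% ± 2.35 in MERTK-KO and 9.49% ± 1.33 in MERTK-KO+DSS mice. MERTK-KO mice on water had 4.03 times the WT share (log2 fold change 2.01, SE 0.26, edgeR adjusted p = 2.09e-06, with 35.1% of families called). On centred log-ratios the log2 difference was 3.64, a scale that moved the log2 changes of all families up by a median of 1.60. WT+DSS mice had 1.89 times the share of WT mice on water (log2 fold change 0.92, SE 0.26, edgeR adjusted p = 0.00889, 26.3% of families called), but the adjusted p was 0.0705 when only these groups were fitted. The fall in MERTK-KO mice did not pass in edgeR (log2 fold change -0.27, SE 0.25, adjusted p = 0.489, 42.1% of families called), while limma on centred log-ratios called it, at -1.28 (adjusted p = 0.00253) against a median over all families of -0.79.

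Under DSS the genotypes differed less, by 1.78 times (log2 fold change 0.83, SE 0.26, edgeR adjusted p = 0.0264, 24.6% of families called). That call was lost, at adjusted p of 0.0534 to 0.0556, without WT+DSS mouse 1 or without MERTK-KO+DSS mouse 1, 2 or 4. The DSS effect in MERTK-KO mice minus that in WT mice (the interaction) was -1.18 on the log2 scale (SE 0.36, edgeR adjusted p = 0.0357, 14% of families called). TMM scaling took it to -1.03 (adjusted p = 0.136), and it missed the threshold without WT mouse 2, WT+DSS mouse 1 or 3, MERTK-KO mouse 1 or 2, or MERTK-KO+DSS mouse 1 or 3 (adjusted p of 0.0509 to 0.0721).

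By share the family ranked 7th among families in WT mice on water, behind Muribaculaceae, Lachnospiraceae, Lactobacillaceae, Helicobacteraceae, Prevotellaceae and Oscillospiraceae. It ranked 3rd in MERTK-KO mice on water, behind Lachnospiraceae and Muribaculaceae. The order Bacteroidales as a whole held 40.2% ± 4.12 in WT, 40.7% ± 1.83 in WT+DSS, 40.9% ± 2.70 in MERTK-KO and 41.2% ± 6.00 in MERTK-KO+DSS mice, values that overlapped throughout. Within the order, Rikenellaceae went from 6.92% ± 1.41 in WT to 27.9% ± 5.79 in MERTK-KO mice on water, and were 13.2% ± 2.65 and 23.2% ± 3.51 on DSS.

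**Figure D1:**
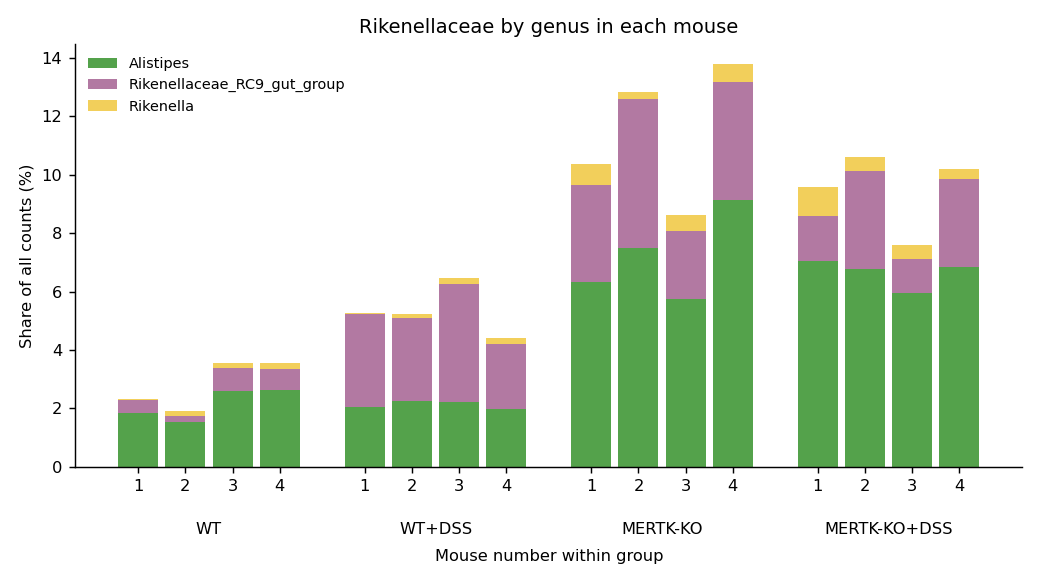
Stacked bars give the share of all counts (%, linear axis from 0) of the 3 genera in each of the 16 mice, 4 per group. Alistipes makes up the larger part of the bars of WT, MERTK-KO and MERTK-KO+DSS mice, and RC9 that of the 4 WT+DSS mice.

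The genera did not move alike. Alistipes differed between genotypes on either drink, and no DSS effect on it was called. Its share was 1.86%, 1.54%, 2.59% and 2.65% in WT mice, 2.05%, 2.25%, 2.22% and 1.97% in WT+DSS mice, 6.33%, 7.50%, 5.75% and 9.14% in MERTK-KO mice and 7.03%, 6.78%, 5.96% and 6.83% in MERTK-KO+DSS mice. No WT mouse of either drink reached the lowest MERTK-KO mouse. Alistipes was 3.33-fold higher in MERTK-KO mice on water (log2 fold change 1.73, SE 0.30, edgeR adjusted p = 0.000301, 40.2% of genus-level groups called) and 3.13-fold higher on DSS (1.65, SE 0.30, adjusted p = 0.00123, 20.5% called). Its log2 fold changes on DSS were -0.02 (SE 0.29, edgeR adjusted p = 0.969) in WT and -0.11 (SE 0.29, adjusted p = 0.907) in MERTK-KO mice. Both are within 1 SE of 0 and turned positive under some scalings, up to 0.61 in WT mice on centred log-ratios and 0.09 in MERTK-KO mice under TMM.

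RC9 rose on DSS in WT mice, and its lower mean on DSS in MERTK-KO mice did not pass the test. It held 0.417%, 0.196%, 0.780% and 0.691% in WT mice on water and 3.19%, 2.85%, 4.02% and 2.25% in WT+DSS mice, with no overlap. That is a 5.91-fold rise (log2 fold change 2.56, SE 0.50, edgeR adjusted p = 0.00172, 32% of genus-level groups called). In MERTK-KO mice it held 3.32%, 5.08%, 2.34% and 4.03% on water and 1.54%, 3.34%, 1.17% and 3.03% on DSS, and these groups overlapped (log2 fold change -0.70, SE 0.48, adjusted p = 0.323, 32.8% called).

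The difference between these DSS effects was itself called, at -3.27 on the log2 scale (SE 0.69, edgeR adjusted p = 0.00363, 9.02% of genus-level groups called). Setting traces to 0 gave -3.30 (adjusted p = 0.00487), and the call held in all 9 alternative settings and without any 1 of the 16 mice. No RC9 ASV was found in both genotypes on water (4 in WT mice alone, 3 in MERTK-KO mice alone). The term therefore compares DSS changes of largely different ASVs. On water, RC9 was 7.09-fold higher in MERTK-KO than in WT mice (log2 fold change 2.83, SE 0.51, edgeR adjusted p = 0.000494). On DSS the genotypes overlapped, at 3.08% ± 0.740 in WT+DSS and 2.27% ± 1.08 in MERTK-KO+DSS mice (log2 fold change -0.44, SE 0.48, adjusted p = 0.559).

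Rikenella was the rarest of the genera. It held 0.0404%, 0.167%, 0.175% and 0.210% in WT mice, 0.0301%, 0.138%, 0.218% and 0.174% in WT+DSS mice, 0.731%, 0.251%, 0.540% and 0.618% in MERTK-KO mice and 0.993%, 0.485%, 0.480% and 0.315% in MERTK-KO+DSS mice. The MERTK-KO mice lay above the WT mice on either drink without overlap. The genotype calls were at the edge of the threshold, 3.61-fold on water (log2 fold change 1.85, SE 0.70, edgeR adjusted p = 0.0427) and 4.06-fold on DSS (2.02, SE 0.70, adjusted p = 0.0496). On water the call was lost under TMM (adjusted p = 0.131), without the filter (0.0552), with traces set to 0 (0.0506), and without any 1 of the WT mice or MERTK-KO mouse 1, 3 or 4 (0.0566 to 0.0990). On DSS it was lost under TMM (0.112), without the filter (0.0631), with traces set to 0 (0.0515), with only these groups fitted (0.0501), and without WT+DSS mouse 1, 2 or 4 or MERTK-KO+DSS mouse 1, 2 or 3 (0.0598 to 0.129). DSS effects on Rikenella were not called in either genotype (log2 fold changes -0.08, SE 0.68, and 0.09, SE 0.67, edgeR adjusted p = 0.95 and 1), and both signs turned under other scalings.

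The balance of RC9 to Alistipes does not depend on the rest of the community. Its counts were 0.225, 0.127, 0.301 and 0.261 times those of Alistipes in WT mice, 1.56, 1.27, 1.81 and 1.14 times in WT+DSS mice, 0.526, 0.677, 0.407 and 0.441 times in MERTK-KO mice and 0.219, 0.493, 0.196 and 0.444 times in MERTK-KO+DSS mice. RC9 thus outnumbered Alistipes in every WT+DSS mouse and in no other mouse. The mean log2 ratio was -2.20 ± 0.54 in WT, 0.51 ± 0.30 in WT+DSS, -0.99 ± 0.33 in MERTK-KO and -1.68 ± 0.69 in MERTK-KO+DSS mice (SD, n = 4).

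Of the 4 contrasts of this log2 ratio, 3 had the smallest p that 4 against 4 mice allow, 0.0286 in a two-sided exact permutation test over 70 arrangements (0.0381 after Benjamini-Hochberg adjustment over the 4). They were WT+DSS against WT (difference 2.70), MERTK-KO against WT (1.21) and MERTK-KO+DSS against WT+DSS (-2.19). The exact permutation p of MERTK-KO against WT was 0.0571 without MERTK-KO mouse 2. In MERTK-KO mice the difference between DSS and water was -0.69 (exact permutation p = 0.2).

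**Figure D2:**
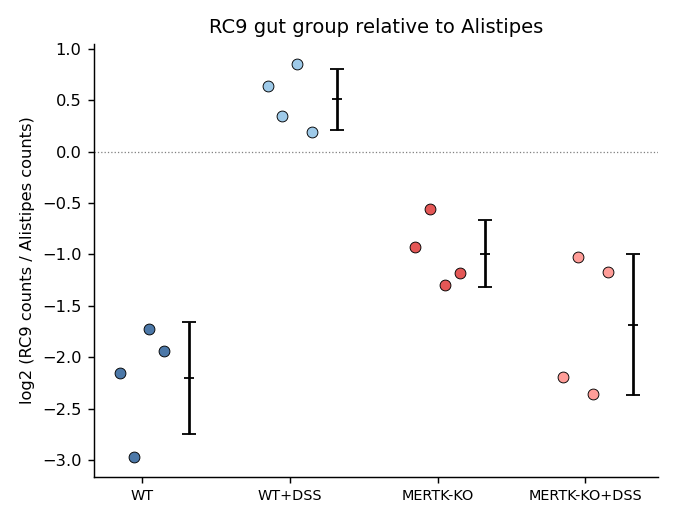
Each point is 1 mouse and gives the log2 ratio of RC9 to Alistipes counts, and bars give the mean and SD of the 4 mice of a group. The 4 WT+DSS mice lie above the dotted line of equal counts and the other 12 mice below it.

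Below the level of genera, few Rikenellaceae were found in both genotypes on water. Of the 42 members found on water, 23 were found in WT mice alone (17 Alistipes, 4 RC9, 2 Rikenella), 16 in MERTK-KO mice alone (11 Alistipes, 3 RC9, 2 Rikenella) and 3 in both, namely ASV100, ASV149 and ASV174. Over all 1471 ASVs found on water, 692 were in WT mice alone, 454 in MERTK-KO mice alone and 325 in both, and 30 of 211 other Bacteroidales were in both. The 3 shared members held 15.9% of the family's counts in WT and 5.93% in MERTK-KO mice. Over all ASVs the shared ones held 35.8% and 50.1%, and over the other Bacteroidales 21.6% and 51.9%.

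On water, 16 members were called higher (20.8% of all ASVs tested were) and 15 lower (32%) in MERTK-KO than in WT mice. The median log2 fold change over the 37 tested members was 0, against -0.18 over all 1056 tested ASVs. Other families of the order also turned over, with 66 of 185 tested ASVs called higher and 90 lower. Members with all their counts in 1 genotype could pass the filter only by differing, so these counts describe the split and are no measure of how unusual the family is.

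The largest MERTK-KO members on water were ASV12 (RC9) and ASV14 (Alistipes). ASV12 had 2815, 4112, 1262 and 2582 counts in MERTK-KO mice and none in WT mice, a level at least 898-fold higher (edgeR adjusted p = 3.59e-07). ASV14 had 3040, 2622, 1854 and 1960 counts and again none in WT mice, at least 789.7-fold higher (adjusted p = 1.00e-07). Each was present in all 8 MERTK-KO mice, and MERTK-KO mouse 3 had the lowest count of either on water.

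Further Alistipes were found in MERTK-KO mice alone on water. ASV33 had 707, 1119, 939 and 1782 counts there, at least 379-fold above WT (edgeR adjusted p = 4.34e-07). ASV73 had 10, 616, 662 and 2165 counts, at least 288-fold above WT (adjusted p = 0.00580) and at least 143-fold without MERTK-KO mouse 4. ASV25 and ASV68 had 299 to 837 and 364 to 1381 counts, and all these ASVs were at 0 in the 4 WT mice on water.

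Members of WT mice that no MERTK-KO mouse on water carried were smaller. ASV157 (Alistipes) had 374, 293, 620 and 553 counts in WT mice, at least 153-fold above MERTK-KO mice (edgeR adjusted p = 0.0151). ASV133 (Alistipes) had 477, 183, 515 and 637 counts, at least 151-fold above (adjusted p = 0.000864). ASV226 (Alistipes) ranged from 109 to 285 counts and ASV228 (RC9) from 19 to 326, at least 71.4-fold and 60.9-fold above (adjusted p = 0.00391 for both).

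Of the 3 ASVs in both genotypes on water, ASV149 carries the species label Alistipes_inops. It was found in all 16 mice, with 197, 264, 327 and 270 counts in WT, 151, 78, 109 and 159 in WT+DSS, 153, 180, 143 and 28 in MERTK-KO and 60, 67, 76 and 107 in MERTK-KO+DSS mice. None of its contrasts passed, with log2 fold changes of -1.09 (SE 0.67, edgeR adjusted p = 0.293) for DSS in WT mice and -1.07 (SE 0.67, adjusted p = 0.182) for genotype on water. Its 2 companions were ASV100 (Rikenella), 17.5-fold higher in MERTK-KO mice (164, 173, 129 and 461 counts against 0, 29, 24 and 0, edgeR adjusted p = 0.0163, 29.0-fold without WT mouse 2), and ASV174 (Alistipes), with 355, 216, 52 and 0 counts in WT and 531, 349, 292 and 8 in MERTK-KO mice (adjusted p = 0.716).

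**Figure D3:**
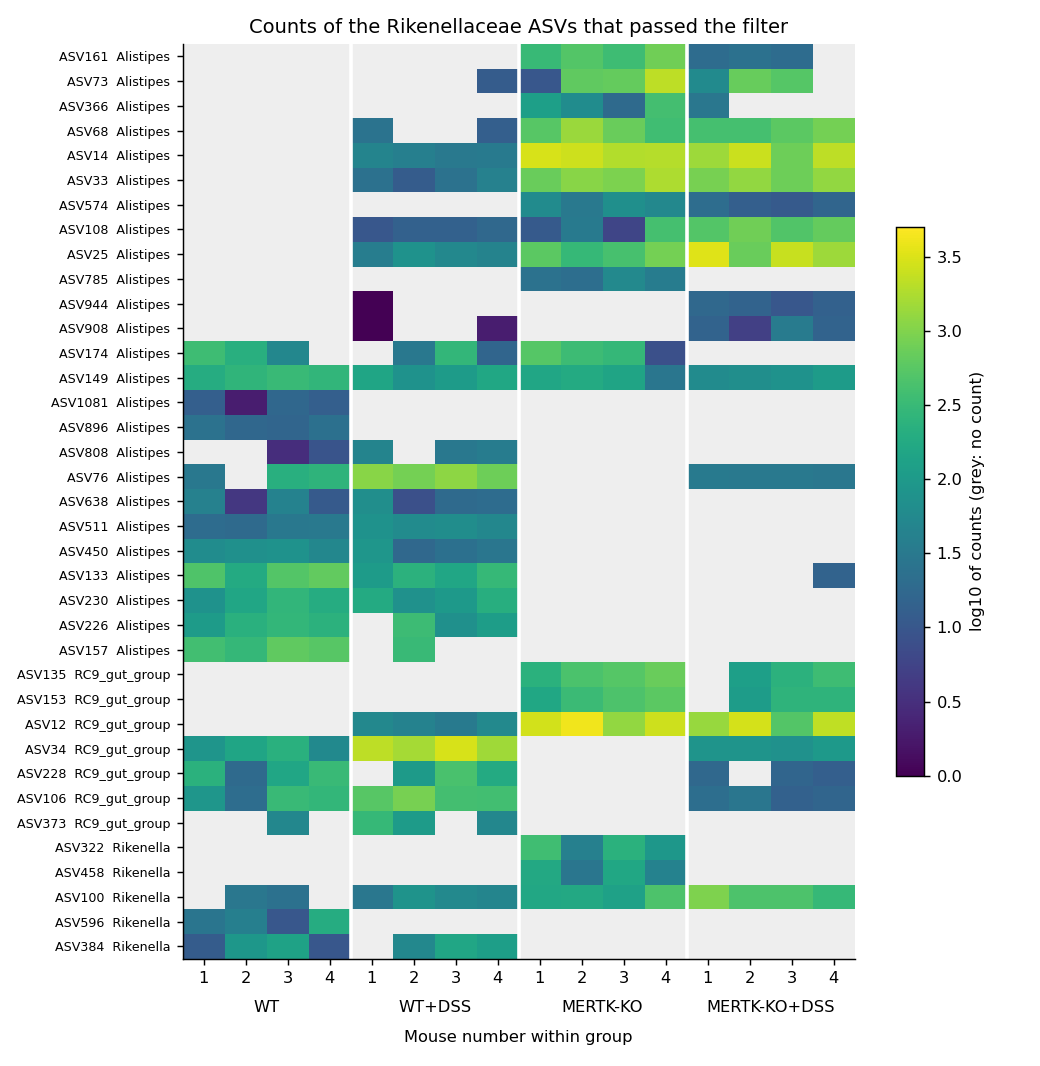
Each row is 1 of the 37 tested Rikenellaceae ASVs and each column 1 of the 16 mice, with colour for log10 counts and pale grey cells for no count. Blocks of rows are filled in the WT groups or in the MERTK-KO groups, with lower counts crossing them in the DSS mice, and ASV149 is filled throughout.

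All 5 Rikenella ASVs were tested, and all 5 were called between the genotypes on water, 3 higher and 2 lower in MERTK-KO mice, while 558 of all 1056 tested ASVs were called. ASV322, ASV458 and ASV596 had counts in the 4 mice of 1 group only and so passed the filter through that group. They could be called in 1 direction only, and their calls describe where they were found. ASV322 had 369, 41, 234 and 92 counts and ASV458 had 172, 28, 158 and 43 counts in MERTK-KO mice on water, and neither had a count in the other 12 mice. They were at least 61.3-fold and 33.4-fold above WT (edgeR adjusted p = 0.00429 and 0.00660), the first 40.8-fold without MERTK-KO mouse 1. WT mice carried ASV384 instead, with 12, 92, 135 and 10 counts on water and 0, 53, 155 and 119 on DSS, and ASV596, with 27, 40, 10 and 193 counts on water alone. ASV384 was at least 20.8-fold above MERTK-KO mice on water (adjusted p = 0.0109, 12.7-fold without WT mouse 3), and ASV596 at least 22.5-fold (adjusted p = 0.0115, 8.56-fold without WT mouse 4). ASV100 was the one Rikenella ASV found in all 4 groups and the only one in MERTK-KO+DSS mice.

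In WT mice the RC9 variant ASV34 was higher on DSS than on water. It had 84, 149, 221 and 57 counts in WT mice on water and 2170, 1612, 3017 and 1495 in WT+DSS mice. The groups were far apart, a 16.2-fold rise (log2 fold change 4.02, SE 0.63, edgeR adjusted p = 0.00106; 0.00889 with traces set to 0). ASV34 alone made 2.15% of counts in WT+DSS mice, of 3.08% for the whole genus. A second RC9 variant, ASV106, went from 89, 21, 323 and 284 to 556, 886, 396 and 382 counts, and the Alistipes variant ASV76 from 30, 0, 218 and 251 to 1113, 851, 1160 and 774. Neither group pair overlapped, yet neither passed the test (log2 fold changes 1.63, SE 0.84, and 2.96, SE 1.22, edgeR adjusted p = 0.195 and 0.105).

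In all, 7 members were called higher (7.86% of all ASVs tested were) and 3 lower (9%) in WT+DSS than in WT mice, with medians of 0 over members and over all ASVs. The other 6 called higher were ASV12, ASV14, ASV25, ASV33, ASV68 and ASV108, all absent from WT mice on water and abundant in MERTK-KO+DSS mice. ASV12, for example, had 53, 44, 34 and 55 counts in WT+DSS mice beside 1361, 2879, 521 and 2184 in MERTK-KO+DSS mice. ASV14 had 46, 40, 31 and 34 beside 1457, 2492, 770 and 2164, and ASV25 had 37, 76, 54 and 45 beside 3303, 713, 2417 and 1445. With traces set to 0 these 6 were no longer called and ASV34 was the 1 member higher. The ASV68 call rested on 26, 0, 0 and 13 counts in WT+DSS mice. It was also lost without WT+DSS mouse 1 (edgeR adjusted p = 0.0546) and with a replicate block (0.0566).

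The 3 members that fell were small and went to 0 in all 4 WT+DSS mice. They were ASV596 (Rikenella, counts above), ASV896 (Alistipes, 25, 17, 16 and 23 counts on water) and ASV1081 (Alistipes, 13, 2, 17 and 13 counts), the last named after its values were seen. Falls were at least 22.5-fold, 6.75-fold and 3.75-fold (edgeR adjusted p = 0.0276, 0.0259 and 0.0394). All 3 had counts in WT mice on water only, so they passed the filter through that group. They could only be called lower, and these calls describe where they were found. ASV596 was at adjusted p = 0.0533 without WT+DSS mouse 1 and 8.56-fold lower without WT mouse 4. DESeq2 did not call ASV896 or ASV1081 (adjusted p = 0.183 and 0.405), nor did edgeR without the filter (0.0776 and 0.124), and ASV1081 also missed without WT mouse 1, 3 or 4 or any 1 WT+DSS mouse (0.0565 to 0.0683). ASV157, present in every WT mouse on water, was found in 1 WT+DSS mouse (0, 325, 0 and 0 counts), a change that did not pass (adjusted p = 0.492).

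**Figure D4:**
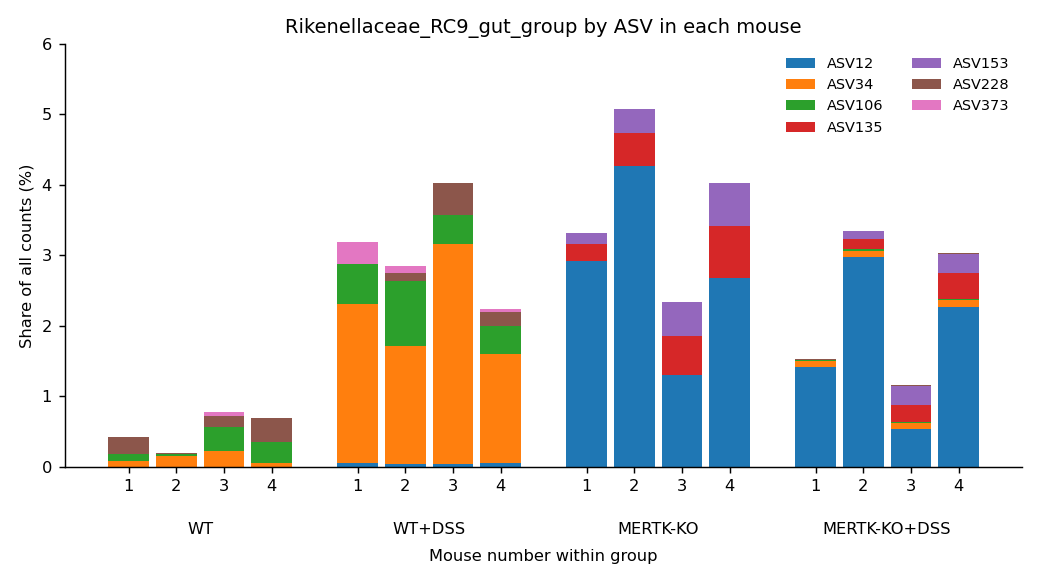
Stacked bars give the share of all counts (%, linear axis from 0) of each of the 7 tested RC9 ASVs in each mouse. ASV34 fills most of the bars of WT+DSS mice, while ASV12, with ASV135 and ASV153, fills those of the MERTK-KO groups.

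In MERTK-KO mice 5 members were called higher on DSS (7.2% of all ASVs tested) and 5 lower (6.16%), again with medians of 0. Of those higher, ASV34 (82, 81, 75 and 101 counts), ASV76 (34, 31, 31 and 29) and ASV106 (22, 28, 14 and 16) were absent from MERTK-KO mice on water and are the ASVs most abundant in WT+DSS mice. Their calls (edgeR adjusted p = 1.25e-05, 0.00846 and 0.00159) ended with traces set to 0. The other 2, ASV908 and ASV944 (Alistipes), had 15, 5, 35 and 15 and 18, 15, 10 and 14 counts on DSS and none on water. These were named after their values were seen, and their calls (edgeR adjusted p = 0.0282 and 0.0244) were lost with traces set to 0 (0.0525 and 0.0508) and without the filter (0.0819 and 0.0941). Without MERTK-KO mouse 2 both were lost (0.0566 and 0.0503), and ASV908 also without MERTK-KO mouse 1 or 3 (0.0508 and 0.0556) or MERTK-KO+DSS mouse 3 (0.0528). With traces set to 0, then, edgeR called 0 members higher, with 4 at an unadjusted p under 0.05, while DESeq2 on the counts as deposited called 9.

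Members lost on DSS in MERTK-KO mice were ASV174 (Alistipes, 531, 349, 292 and 8 counts on water), ASV322 and ASV458 (Rikenella, counts above) and ASV785 (Alistipes, 25, 22, 55 and 36 counts). None had a count in MERTK-KO+DSS mice, so falls were at least 98.3-fold, 61.3-fold, 33.4-fold and 11.5-fold (edgeR adjusted p = 0.0225, 0.0114, 0.0184 and 0.0244). ASV322, ASV458 and ASV785 had counts in MERTK-KO mice on water only, so they passed the filter through that group. They could only be called lower, and their calls describe where they were found. ASV322 fell by at least 40.8-fold without MERTK-KO mouse 1, and ASV174 was at adjusted p = 0.0502 without MERTK-KO+DSS mouse 4. ASV785 was lost in DESeq2 (0.0656), without the filter (0.0516) and without MERTK-KO mouse 3 (0.0519). ASV161 (Alistipes, named after its values were seen) went from 311, 520, 351 and 781 to 20, 24, 20 and 0 counts, 30.7-fold (edgeR adjusted p = 0.0368). That call was lost with median-ratio size factors (0.0540), with traces set to 0 (0.0519), and without any 1 of the MERTK-KO mice or MERTK-KO+DSS mouse 1, 2 or 3 (0.0530 to 0.0765).

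The abundant members of MERTK-KO mice persisted on DSS, with shifts among them that did not pass the test. ASV25 (Alistipes) went from 588, 299, 427 and 837 to 3303, 713, 2417 and 1445 counts, and MERTK-KO+DSS mouse 2 lay within the range of the water mice (3.66-fold, edgeR adjusted p = 0.0603). ASV108 (Alistipes) went from 11, 34, 6 and 403 to 509, 795, 494 and 675 counts without overlap (5.45-fold, adjusted p = 0.161). ASV100 (Rikenella) went to 958, 468, 463 and 304 counts (2.37-fold, adjusted p = 0.597), and ASV12 was 1.55-fold lower (adjusted p = 0.605). ASV12 had counts of 521 to 2879 on DSS, the lowest in MERTK-KO+DSS mouse 3.

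Under DSS 13 members were called higher in MERTK-KO+DSS than in WT+DSS mice (19% of all ASVs tested were) and 14 lower (18.7%), at medians of 0. Of the 39 members found on DSS, 16 were found in both genotypes, and over all ASVs 440 of 1291 were. The 16 held 84.5% of the family's counts in WT+DSS and 95.9% in MERTK-KO+DSS mice (all shared ASVs 89.7% and 92.1%). With traces set to 0, 3 members were shared (ASV100, ASV149 and ASV228), with 7.21% and 7.07% of the family's counts. ASV228 had no count in MERTK-KO mice on water. It stayed shared because its MERTK-KO+DSS mean was 6.52% of its WT+DSS mean, just over the limit of 5%. RC9 shows the split most plainly, since its share did not differ by the test while its ASVs did. ASV12 was 37.3-fold higher in MERTK-KO+DSS mice (log2 fold change 5.22, SE 0.69, edgeR adjusted p = 0.000262) and ASV34 24.5-fold lower (log2 fold change -4.61, SE 0.65, adjusted p = 0.000353). ASV106 was 27.8-fold lower (log2 fold change -4.79, SE 0.96, adjusted p = 0.00339). In each of these 3 the lower group held a trace as defined above, so the fold depends on the size of the trace. With traces set to 0 all 3 were still called, and the log2 fold change of ASV12 was 13.78. That setting empties the lower DSS group because of this same difference. It could only widen the contrast and is no check on it.

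ASV135 and ASV153 (RC9) were found in 7 mice, all of them MERTK-KO. They had 231, 453, 531 and 711 and 161, 336, 460 and 595 counts on water, and 0, 124, 242 and 357 and 0, 110, 256 and 256 on DSS. In MERTK-KO+DSS mice they were at least 60.2-fold and 51.8-fold above WT+DSS mice (edgeR adjusted p = 0.00600 and 0.00643), although MERTK-KO+DSS mouse 1 had neither. Among Alistipes, ASV68 was 57.4-fold higher in MERTK-KO+DSS mice (400, 412, 593 and 835 counts against 26, 0, 0 and 13, edgeR adjusted p = 0.00926, 129-fold without WT+DSS mouse 1). Its WT+DSS counts were a trace as defined above. The call held with traces set to 0, a setting that could only widen this contrast.

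ASV73 was 107-fold higher in MERTK-KO+DSS mice (58, 693, 535 and 0 counts against 0, 0, 0 and 12, edgeR adjusted p = 0.0382), a call lost without WT+DSS mouse 1, 2 or 3 or MERTK-KO+DSS mouse 2 or 3 (0.0629 to 0.0773). Its groups overlapped, and MERTK-KO+DSS mouse 4 had none. The WT+DSS count of ASV73 was also a trace. Its call held with traces set to 0, which could only widen this contrast and does not offset these losses. Lower in MERTK-KO+DSS mice were ASV226 (0, 341, 73 and 113 counts in WT+DSS mice, at least 43.9-fold, edgeR adjusted p = 0.00771, 20.7-fold without WT+DSS mouse 2) and ASV230, an Alistipes_inops variant (182, 74, 102 and 212 counts, at least 47.5-fold, adjusted p = 0.000542). ASV174 (0, 30, 283 and 16 counts in WT+DSS mice) was at least 27.4-fold lower (edgeR adjusted p = 0.0186), 5.11-fold without WT+DSS mouse 3, and missed in limma on centred log-ratios (0.0609 and 0.0745). ASV373 (RC9, 303, 107, 0 and 51 counts) was at least 38.4-fold lower (edgeR adjusted p = 0.0390), a call lost without WT+DSS mouse 1, 2 or 4 or any 1 MERTK-KO+DSS mouse (0.0561 to 0.0710), and its fold was at least 17.6 without WT+DSS mouse 1.

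**Figure D5:**
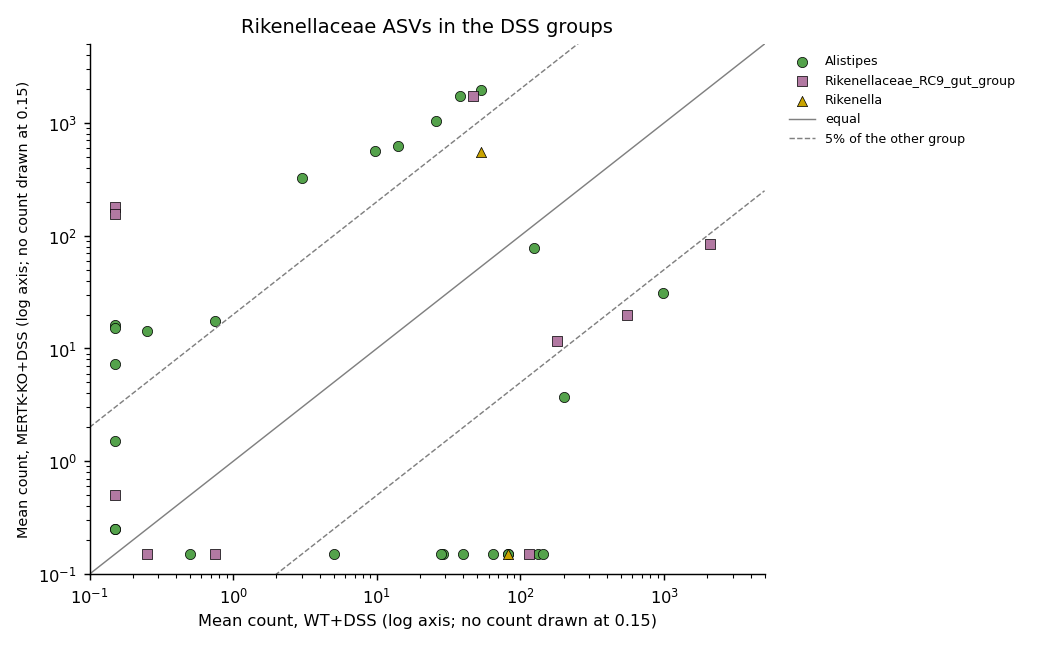
Each point is 1 Rikenellaceae ASV, with its mean count in WT+DSS mice on the x axis and in MERTK-KO+DSS mice on the y axis (log axes, a mean of 0 drawn at 0.15). Abundant ASVs lie in a band near or beyond the dashed lines, where a mean is 5% of that in the other genotype, and ASV149 is the abundant point nearest to the line of equal means.

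For single members the interaction was called for 6, 2 higher (3.12% of all ASVs tested were) and 4 lower (2.46%), with a median of -1.32 over members and 0.80 over all ASVs. These were ASV34 and ASV106 (5.39 and 5.70 on the log2 scale, edgeR adjusted p = 0.00231 and 0.0205) and ASV12, ASV14, ASV25 and ASV33 (-9.18, -8.70, -6.86 and -7.82, adjusted p of 2.60e-05 to 0.000860). All 6 rest on a trace in 1 DSS group beside a count of 0 in its water group. With traces set to 0, edgeR called 0 members (2 at an unadjusted p under 0.05, 1 in each direction), and ASV34, ASV106 and ASV25 changed sign (-4.04, -1.65 and 1.90). On the counts as deposited, DESeq2 called 8 and limma on centred log-ratios 17. The RC9 interaction above, a sum over ASVs, was called with and without traces, but traces are a small part of the RC9 share. Setting them to 0 took that share from 3.08% to 3.07% in WT+DSS mice and from 2.27% to 2.20% in MERTK-KO+DSS mice. The setting is therefore a weak check on the RC9 call.

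The family's counts sat in fewer ASVs on average in WT+DSS than in WT mice. The effective number of ASVs (the exponential of the Shannon index within the family) was 11.4 ± 0.865 in WT, 7.72 ± 1.62 in WT+DSS, 9.40 ± 1.68 in MERTK-KO and 7.96 ± 0.961 in MERTK-KO+DSS mice (SD, n = 4). The most abundant ASV held 18.5% ± 2.23, 39.5% ± 7.40, 26.3% ± 6.53 and 29.8% ± 5.94 of the family in the same order. These values were not tested.

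Some members kept a steady ratio to each other across mice, given as a description of mice that share groups. Of 187 pairs with at least 10 counts of both in 6 or more mice, the median SD of the log2 ratio was 1.95. ASV135 and ASV153, both RC9, had the lowest, 0.21, with 0.945 to 1.43 counts of the first per count of the second in the 7 mice that held them. ASV12 (RC9) and ASV14 (Alistipes), of different genera, came next with 0.40 and 0.677 to 1.62 counts over 12 mice. The WT+DSS mice among them held both ASVs only as traces as defined above, whose origin was not tested.

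Species labels were few. Besides ASV149 and ASV230, Alistipes_inops was given to ASV1193 and ASV2059, both under the filter. ASV511 (Alistipes_timonensis) was found in the 8 WT mice alone, with 19 to 31 counts on water and 52 to 77 on DSS, and ASV808 (Alistipes_indistinctus) in 5 of them, with up to 46 counts. The 15 members under the filter included 14 found in 1 mouse each, with at most 35 counts, and ASV588 (Alistipes), with 14 and 270 counts in WT mice 3 and 4.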

How the data were processed

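Per the labels each of the 16 libraries is a separate mouse. The deposited values are 16S counts per ASV, which the authors brought to 96469 in every library (the table's title calls it even). Not given in the sources used here were the original depth, amplicon region, ASV caller and reference taxonomy. The labels' protocols describe total RNA and an mRNA library, so it is unclear if 16S genes or transcripts were amplified. The 2 deposited tables held the same counts.

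Members were taken by family name, and counts were summed per genus and family. Members, lists, tests and the traces setting were chosen with earlier results of these data known. The main test was edgeR 4.0.16 (R 4.3.3) on all 16 libraries with library totals as the only scaling, a mean per group and a filter of 10 counts and 3 libraries. Alternatives were TMM, median-ratio size factors, limma 3.58.1 on centred log-ratios (pseudocounts 0.5 and 1), DESeq2 1.42.0, a replicate block, no filter or one of 6 libraries, only the groups compared, traces set to 0 (under 5% of the other DSS group) and each mouse left out. The log2 ratio of RC9 to Alistipes used a pseudocount of 0.5. A fold is the ratio of mean counts, or, against a group at 0, a bound at 3 counts per library. Scripts were tested on simulated data. No 2 mice of a group agreed within sampling noise (chi-square per degree of freedom at least 50.8).

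Named ASVs were the 12 most abundant members, every Rikenella ASV, up to 4 called ASVs in each direction of a comparison, by fold change, with at least 0.02% in a group, and the 3 with the lowest interaction p. Others are shown where a count or a label singles them out, after their values were seen. Intervals and floors cover counting error only.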

Additional observations from a re-analysis of the deposited data

Results flagged for a closer look

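Of 82 groups of the family, genera and named ASVs checked for a mouse far from the other 3, 8 stood apart by Dixon's criterion. Its chance rate of about 1 in 20 is for normally spread values, so it cannot be set beside counts with many zeros. A lone count beside zeros always meets the criterion. Alone with a count in its group were ASV73 in WT+DSS mouse 4 (0.0124%), ASV157 in WT+DSS mouse 2 (0.337%), ASV133 in MERTK-KO+DSS mouse 4 (0.0155%) and ASV373 in WT mouse 3 (0.0529%). Far above the others were MERTK-KO mouse 4 in ASV100 (0.478%) and ASV108 (0.418%), WT mouse 4 in ASV596 (0.200%) and WT+DSS mouse 3 in ASV174 (0.293%).

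The DSS effect differed between genotypes by a test of the difference itself (edgeR's interaction term) for the family (-1.18 on the log2 scale) and for RC9 (-3.27). The same term was called for ASV12 (-9.18), ASV14 (-8.70), ASV25 (-6.86), ASV33 (-7.82), ASV34 (5.39) and ASV106 (5.70), and for these 6 it was not called with traces set to 0.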

How the results depend on the processing

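In WT mice on DSS the 10 members called became 16 and 17 in limma on centred log-ratios (pseudocounts 0.5 and 1) and 4 with traces set to 0. In MERTK-KO mice on DSS the 10 became 4 with traces set to 0. The interaction's 6 became 17 in both limma fits and 0 with traces set to 0. Leaving out a mouse gave 7 to 11 in both DSS comparisons, 22 to 24 of 27 between genotypes on DSS and 6 to 7 in the interaction. Between genotypes on water 31 stayed 31 without any 1 mouse and were 23 to 32 in other settings. The higher and lower split of WT mice on DSS went from 7 and 3 to 10 and 1 in DESeq2 and 7 and 0 with a filter of 6 libraries. In MERTK-KO mice it went from 5 and 5 to 7 and 4 with median-ratio size factors.

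The family's rise in WT mice (0.92) was not called with only the groups compared (0.92, adjusted p = 0.0705). Its fall in MERTK-KO mice was called in limma (-1.28 and -1.19). Its interaction was not called under TMM (-1.03). Without 1 mouse the genotype difference on DSS was 0.75 to 0.93 and the interaction -1.31 to -1.03. The RC9 to Alistipes ratio between genotypes on water was 0.95 to 1.36 without 1 mouse.

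Replicate numbers are shared by all groups, but mice of 1 number did not deviate together (correlations of -0.095 to 0.0636, and 2 of 16 best with their own number). No pairing by number was seen, though a check on groups of 4 mice cannot exclude it. With a replicate block 6 members were called in WT and 5 in MERTK-KO mice on DSS, and the family difference on DSS was 0.82 (adjusted p = 0.0531). Paired permutation of the ratio (2.70, 1.21 and -2.19) cannot go below p = 0.125 with 4 pairs, exact.

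Genus changes near 0 changed sign in 33 fits, none of them called. Alistipes in WT mice on DSS was 0.24 with median-ratio size factors and in DESeq2, 0.61 and 0.51 in limma, and -0.15 to 0.091 without 1 mouse. In MERTK-KO mice it was 0.091 under TMM and -0.20 to 0.028 without 1 mouse. Its interaction was 0.10 under TMM, 0.021 with traces set to 0, and -0.20 to 0.051 without 1 mouse. Rikenella in WT mice on DSS was 0.023 (TMM), 0.17 (median-ratio and DESeq2), 0.43 and 0.33 (limma), and -0.40 to 0.25 without 1 mouse. In MERTK-KO mice it was -0.13 and -0.12 in limma, and -0.33 to 0.29 without 1 mouse. Its interaction was -0.064 (median-ratio and DESeq2), -0.56 and -0.45 (limma), and -0.24 to 0.48 without 1 mouse. With traces set to 0 the interactions of ASV25, ASV34 and ASV106 were 1.90, -4.04 and -1.65.

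Groups of 4 mice limit what single ASVs can show, and equal totals of 96469 counts set the floor at 0.00311%. Scalings moved the log2 changes of all families between genotypes on water by a median of up to 1.60. Nothing here separates a change in cell number from one in share.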
